A study of Homo sapiens with 12 samples.

Results

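The 10 genes described here encode receptors and signalling adaptors linked to the proteins S100A8 and S100A9: TLR4, TLR2, AGER, LY96, CD14, MYD88, BSG, CLEC4E, IRAK1 and TRAF6. They were taken by symbol from the deposited gene table, which holds 20286 human Ensembl gene IDs, and all 10 were found, each with a single ID. RNA was sequenced in HK-2 cells, an immortalised human cell line derived from the proximal tubule epithelium of the kidney, labelled wild type. Treated cells received a recombinant protein at 5 mg/mL for 48 h, and control cells the matching amount of phosphate-buffered saline (PBS), all in DMEM. The treated groups differed in the protein, which was S100A8 alone, S100A9 alone, or what the labels call S100A8/S100A9. Whether this last was a ready-made complex or a mixture of the single proteins is not stated. The dose is given as the labels print it, and its unit could not be checked. Each of the 4 groups held 3 libraries. The labels do not say whether replicates came from separate cultures, so the spread behind each p-value may be technical.

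S100A8 and S100A9 are calcium-binding proteins that neutrophils and monocytes release at sites of inflammation, mostly as a paired complex called calprotectin. Outside the cell they act as danger signals. The receptors most often reported for them are TLR4, which needs its partner MD-2 (the product of LY96) and is helped by CD14, and RAGE, the product of AGER; CD147, the product of BSG, has been reported for S100A9. TLR4 and TLR2 pass their signal through the adaptor MYD88 to the IRAK1 kinase and the ubiquitin ligase TRAF6, which leads to activation of NF-kB. CLEC4E encodes Mincle, a C-type lectin receptor best known from macrophages, which senses glycolipids and material from dead cells and signals through the Fc receptor gamma chain and the kinase SYK. In mouse macrophages the induction of Clec4e depends on MyD88 and on the transcription factor C/EBP beta.

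Promoters are shown for CLEC4E, the 1 gene of the 10 that passed the test after S100A9, for TLR4, the main receptor and one of the lowest of the 10, and for BSG, the most abundant. Each window is the RefSeq sequence on GRCh38.p14 from 250 bases before to 50 bases after a start of the gene in RefSeq. It is read 5′ to 3′ on the gene's own strand. Capitals mark a match to a searched motif. The CLEC4E window is chr12:8540856-8541155 on the minus strand, that of TLR4 is chr9:117704153-117704452 on the plus strand, and that of BSG is chr19:572346-572645 on the plus strand.
CLEC4E: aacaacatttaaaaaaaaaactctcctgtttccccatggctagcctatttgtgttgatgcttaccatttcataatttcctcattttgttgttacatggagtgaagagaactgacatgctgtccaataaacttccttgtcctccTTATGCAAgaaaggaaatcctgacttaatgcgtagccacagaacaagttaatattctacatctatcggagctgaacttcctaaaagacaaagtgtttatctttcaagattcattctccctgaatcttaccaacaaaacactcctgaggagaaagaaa
TLR4: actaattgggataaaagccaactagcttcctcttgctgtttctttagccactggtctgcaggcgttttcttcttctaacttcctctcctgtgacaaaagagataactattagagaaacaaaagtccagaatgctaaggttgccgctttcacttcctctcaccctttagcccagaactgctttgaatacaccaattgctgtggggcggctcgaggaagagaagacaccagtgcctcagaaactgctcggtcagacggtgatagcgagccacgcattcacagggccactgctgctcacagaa
BSG: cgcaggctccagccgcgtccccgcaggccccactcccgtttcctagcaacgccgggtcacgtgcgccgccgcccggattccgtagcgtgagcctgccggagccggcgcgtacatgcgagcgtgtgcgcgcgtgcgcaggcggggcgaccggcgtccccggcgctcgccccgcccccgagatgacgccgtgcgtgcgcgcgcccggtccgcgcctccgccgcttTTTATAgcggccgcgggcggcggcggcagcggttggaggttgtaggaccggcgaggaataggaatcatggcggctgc

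Windows were searched for 9 of the 10 genes, and LY96 is named only. BSG has another window, at chr19:571033-571332, which spans the first base of the annotated gene and held none of the 4 motifs. The BSG window printed above belongs to a start further inside the gene. Both strands were searched for GGGANNTTC (NF-kB), TTGCNNAA (C/EBP), TGANTCA (AP-1) and TATAAA (the TATA box), where N is any base. These occur in 4.17%, 10.5%, 7.72% and 11.6% of the 34943 RefSeq promoters of the same length. CLEC4E held 1 C/EBP match, TTATGCAA, on the opposite strand with its first base 107 bases before the gene's start. CD14 held an AP-1 match (TGAGTCA) with its first base 223 bases before its start, and IRAK1 held another 1 base before its start. The printed BSG window held the TATA box on its opposite strand (letters TTTATA). Its first base lay 27 bases before the start used for that window. TRAF6 held the 1 NF-kB match, GGGATCTTC, with its first base 245 bases before its start, and TLR4, TLR2, AGER and MYD88 held none of the 4 motifs. The windows differ widely in base composition: CLEC4E had a GC content of 36.7%, TLR4 48.3%, BSG 75.3% and IRAK1 83.0%. A match is only a run of letters and no binding was measured.

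Library totals ranged from 15882193 to 20748334 counts, with 15483 to 15653 genes above 0. Of 14 marker genes for epithelium and proximal tubule, the keratins KRT8, KRT18 and KRT19, EPCAM, the kidney transcription factor PAX8 and the mesenchymal filament gene VIM had mean control levels from 77.8 to 417 FPKM, the authors' fragment count scaled by gene length and library total. The mesenchymal cadherin CDH2 averaged 42.2 FPKM and the epithelial cadherin CDH1 0.90 FPKM in control cells. Of the proximal tubule genes, GGT1 averaged 28.1 FPKM, whereas LRP2, CUBN, AQP1, ANPEP and SLC34A1 averaged at most 0.090 FPKM in control cells. Of 15 myeloid marker genes, 5 had 0 counts in all 12 libraries: S100A8, S100A9, S100A12, TYROBP and AIF1. The summed myeloid markers ranged over 65.99–68.34 FPKM after S100A8, 62.17–78.18 after S100A9, 59.62–72.74 after S100A8/S100A9 and 61.08–68.81 in control, and CD68, a lysosomal protein, held most of it at 62.7 FPKM on average in control. The 7 lymphocyte markers together reached at most 0.32 FPKM and 5 endothelial markers at most 0.44 FPKM in any library. The summed 5 fibroblast markers were between 30.39 and 40.41 FPKM, of which LUM, a matrix proteoglycan, held 33.8 ± 0.90 FPKM in control.

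By control level the 10 transcripts lay between percentile 35.5 (CD14) and percentile 99.1 (BSG) of all genes in the table. BSG was highest at 266.89 ± 2.39 FPKM (SD, n = 3 in control, as for all means below). IRAK1 followed at 106.81 ± 1.66 FPKM, at percentile 97.2. The CD147 protein that BSG encodes is a widely expressed membrane glycoprotein that carries lactate transporters to the cell surface, and IRAK1 is the kinase recruited to MYD88.

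The toll-like receptors and their partners stood far lower. LY96 averaged 8.40 ± 0.15 FPKM, TLR2 6.65 ± 0.12 FPKM, TLR4 0.49 ± 0.11 FPKM and CD14 0.31 ± 0.18 FPKM in control cells. LY96, whose product is the lipid-binding partner of TLR4, was therefore listed above TLR4 itself in every library, with 7.22 to 10.50 FPKM against 0.41 to 0.69 FPKM for TLR4. The adaptor MYD88 averaged 5.29 ± 0.53 FPKM, TRAF6 3.56 ± 0.23 FPKM, CLEC4E 4.49 ± 1.31 FPKM and AGER 1.93 ± 0.22 FPKM in control cells. In the order of control means, from BSG, IRAK1, LY96, TLR2, MYD88, CLEC4E, TRAF6, AGER and TLR4 down to CD14, the ranges of the 3 control libraries overlapped between MYD88 and CLEC4E, between CLEC4E and TRAF6, and between TLR4 and CD14. The other 6 pairs of neighbours did not overlap in control, although LY96 with TLR2 and TLR2 with MYD88 overlapped over all 12 libraries.

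**Figure D1:**
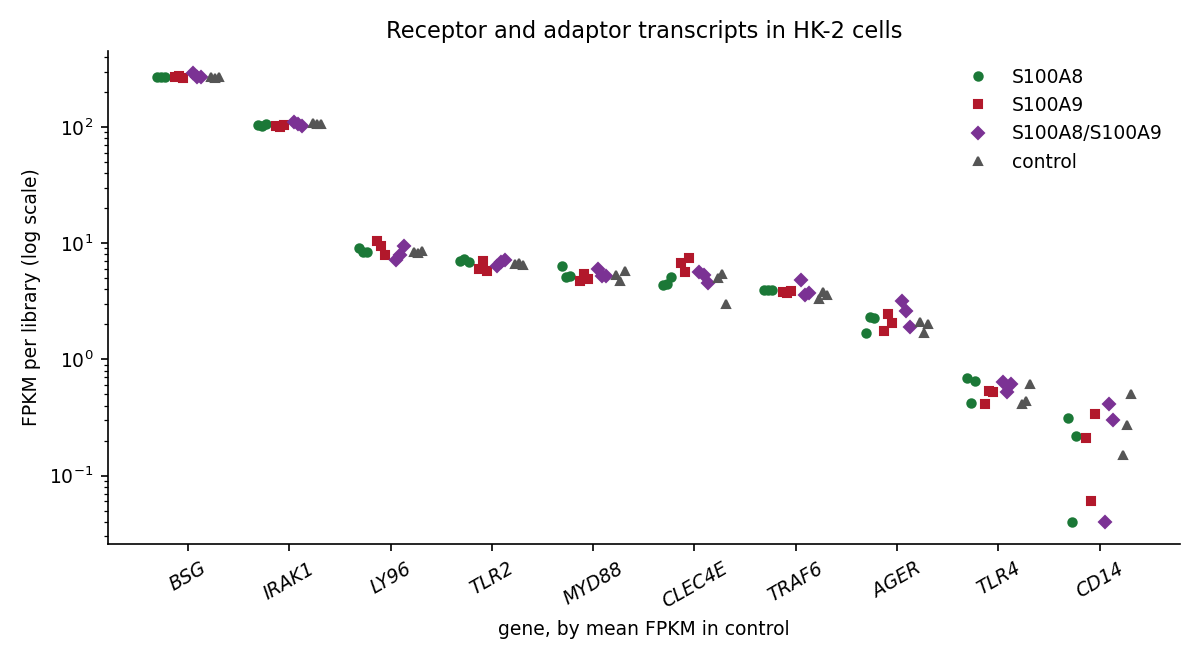
Deposited FPKM (y axis, log scale) of the 10 receptor and adaptor genes (x axis, ordered by control mean) in each of the 12 libraries, with 1 point per library and a colour and symbol for each group. The levels run from BSG at 264 to 290 FPKM down to CD14 at 0.04 to 0.50 FPKM, and for most genes the 4 groups lie on top of each other.

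The lowest 2 rested on few counts. CD14, the surface protein that hands ligands to TLR4, had 7, 1 and 6 counts after S100A8, 5, 2 and 6 after S100A9, 1, 5 and 4 after S100A8/S100A9 and 3, 6 and 12 in control. It was present in every library at a trace and was removed by the filter on low counts, so it has no test. TLR4 had 56.43, 43 and 64.44 counts after S100A8, 38, 53 and 55 after S100A9, 72, 50 and 53 after S100A8/S100A9 and 40, 40 and 59 in control. All 4 groups overlapped for TLR4. An annotated protein-coding gene on the same strand, AL160272.2, spans all 20556 bases of TLR4 and had between 0 and 3 counts. How reads shared by both genes were counted is not known.

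In genome terms (GENCODE 29 on GRCh38), CLEC4E (ENSG00000166523) lies on chromosome 12 from 8533305 to 8540963, TLR4 (ENSG00000136869) on chromosome 9 from 117704175 to 117724730 and TLR2 (ENSG00000137462) on chromosome 4 from 153684070 to 153705702. AGER (ENSG00000204305) lies on chromosome 6 from 32180968 to 32184324, BSG (ENSG00000172270) on chromosome 19 from 571277 to 583493, and IRAK1 (ENSG00000184216) on chromosome X from 154010500 to 154019980. An antisense gene overlaps 952 bases of BSG and it is not known whether reads were counted by strand.

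The comparison of S100A9 with PBS asked which transcripts differ after this protein. CLEC4E rose. It had 8.37, 6.90 and 8.84 CPM (counts scaled to library size) after S100A9, against 4.90, 5.52 and 4.08 CPM in control, and every S100A9 library lay above every control library, as for 6.25% of all tested genes. The underlying counts were 143, 134 and 161 after S100A9, against 84, 88 and 72 in control. The means were 8.03 ± 1.01 CPM after S100A9 and 4.83 ± 0.72 CPM in control, a log2 fold change of 0.73 (SE 0.16, 95% interval 0.42 to 1.05), with an adjusted p of 0.0463 (edgeR, quasi-likelihood F test, Benjamini-Hochberg over 13512 genes). It was 1 of the 20 genes called, 0.148% of those tested, and ranked last among them by p. The genes described here were chosen with earlier results of these data known, so this call is no independent test of the list.

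That call lies close to the threshold of 0.05. Without S100A9 replicate 1 the adjusted p in edgeR was 0.188, without S100A9 replicate 3 it was 0.346, and without control replicate 1, 2 or 3 it was 0.184, 0.0605 or 0.239. Without S100A9 replicate 2, the lowest of the treated libraries, the log2 fold change was 0.84 with an adjusted p of 0.0246. Over all 14 alternatives the log2 fold change stayed between 0.50 and 0.84, while the adjusted p ran from 0.0120 to 0.587 and was past the threshold in 5.

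**Figure D2:**
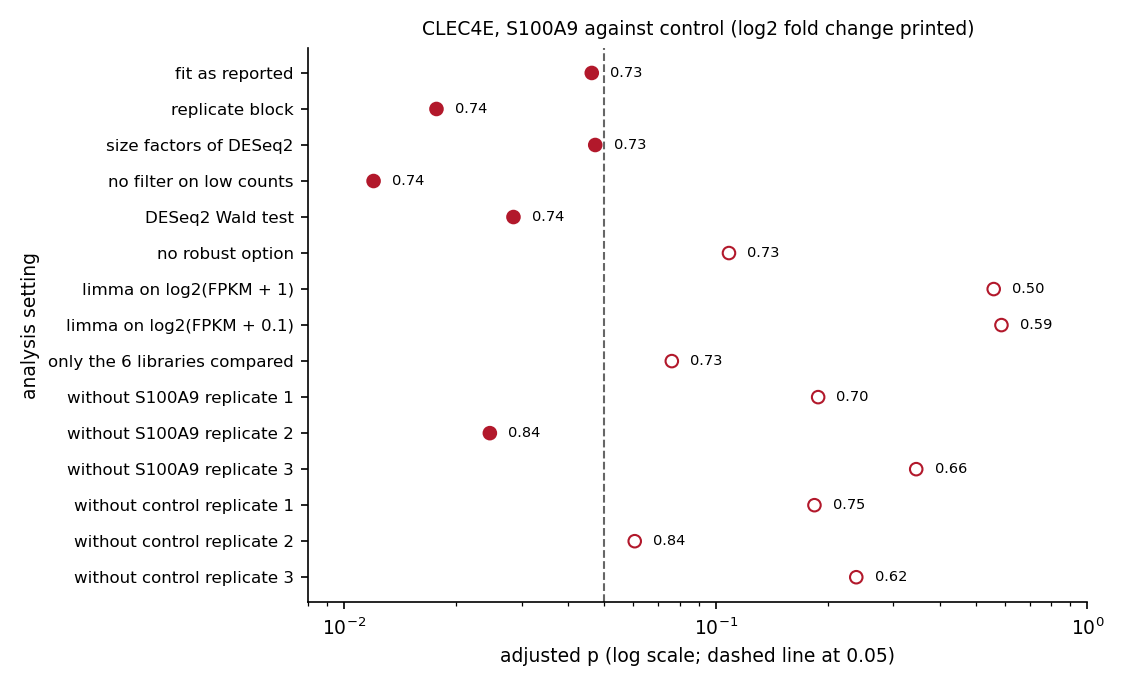
Adjusted p (x axis, log scale, dashed line at 0.05) of CLEC4E in S100A9 against control under each analysis setting (y axis), with the log2 fold change printed beside each point and filled points past the threshold. The fit as reported and 5 alternatives lie left of the line, 9 lie to its right, and all log2 fold changes lie between 0.50 and 0.84.

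The direction of CLEC4E in the other arms was the same, with smaller differences. It had 5.71, 5.23 and 6.33 CPM after S100A8 (log2 fold change against control 0.26, SE 0.16, adjusted p = 1.00 in edgeR) and 6.60, 6.34 and 4.71 CPM after S100A8/S100A9 (0.29, SE 0.16, adjusted p = 0.897). Both groups overlapped control, and neither difference was called. Set directly against S100A8, S100A9 gave a log2 difference of 0.48 (95% interval 0.17 to 0.79, adjusted p = 0.392 in edgeR), and the 3 libraries of each arm did not overlap. S100A8/S100A9 against S100A9 gave -0.45 (95% interval -0.75 to -0.14, adjusted p = 0.484), again without overlap. These direct tests did not pass, so a difference of CLEC4E between the arms was not shown. S100A8/S100A9 against S100A8 gave 0.03 (95% interval -0.29 to 0.35).

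The authors' FPKM values gave a looser picture of the same gene. CLEC4E was listed at 6.80, 5.67 and 7.46 FPKM after S100A9, against 5.06, 5.41 and 2.99 FPKM in control. The groups again did not overlap, but the spread of control was wider than in counts. The length implied by each library's count, FPKM and total was 1226, 1209 and 1184 bases after S100A9, against 971, 1024 and 1369 bases in control, so control replicate 3 had the longest value and the lowest FPKM. The 4 coding transcripts of CLEC4E in GENCODE run from 420 to 2159 bases. For BSG the same calculation gave 1615 to 1621 bases over all 12 libraries. On log2(FPKM + 1), limma gave a log2 difference of 0.50 with an adjusted p of 0.559.

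**Figure D3:**
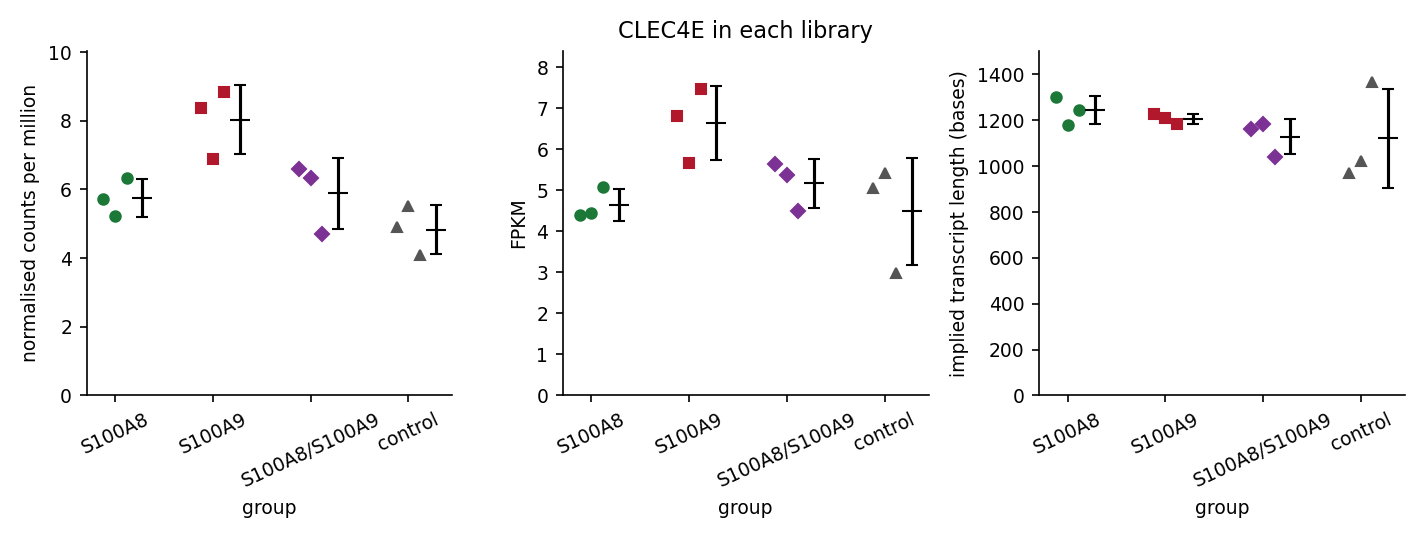
CLEC4E in each library of the 4 groups (x axis) as CPM, as deposited FPKM and as the transcript length in bases implied by count, FPKM and library total (y axes, from 0); points are libraries, the bar beside them is the mean ± SD (n = 3). The S100A9 libraries are the highest of all on both expression scales, and the control libraries are the most spread in implied length, from 971 to 1369 bases.

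Signalling partners of Mincle differed widely in level. In control cells FCER1G, the Fc receptor gamma chain, averaged 1.40 ± 0.37 FPKM, the kinase SYK 0.12 ± 0.04 FPKM and the adaptor CARD9 0.84 ± 0.14 FPKM. CLEC4D, the related lectin receptor that pairs with Mincle, was the lowest at 0.050 ± 0.046 FPKM. BCL10 stood at 15.2 ± 0.44 FPKM and MALT1 at 34.4 ± 2.56 FPKM, the highest of the list. Of the 7 Mincle partner genes that were tested, 0 were called in edgeR's test in any of the 6 comparisons, in which between 0% and 0.252% of all tested genes were called.

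The receptors other than CLEC4E gave no call after S100A9. TLR2 had 17.38, 21.10 and 16.91 CPM after S100A9, against 19.55, 19.31 and 19.03 CPM in control (log2 fold change -0.06, 95% interval -0.24 to 0.11). The treated libraries lay on both sides of control. LY96 had 5.73, 5.30 and 4.28 CPM after S100A9, against 4.55, 4.45 and 4.59 CPM in control (0.17, -0.15 to 0.49). Of these LY96 libraries, 2 after S100A9 lay above control and 1 below it. TLR4 differed by -0.04 (-0.48 to 0.41) and AGER by 0.02 (-0.48 to 0.52), both with overlapping groups and wide intervals.

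Of the adaptors and of BSG, IRAK1 alone had groups that did not overlap after S100A9. It stood at 338.98, 338.12 and 341.84 CPM after S100A9, against 359.91, 347.38 and 354.31 CPM in control, so each S100A9 library was lower. The log2 fold change was only -0.06 (SE 0.04, 95% interval -0.14 to 0.02, adjusted p = 0.896 in edgeR), and 5.77% of all tested genes lay below control without overlap in this comparison. MYD88 differed by -0.06 (-0.27 to 0.15), TRAF6 by -0.0034 (-0.19 to 0.18) and BSG by 0.01 (-0.06 to 0.09), all overlapping. In fold terms, the 95% intervals of the 8 tested genes other than CLEC4E lay between 0.716 and 1.43 after S100A9.

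After S100A8, 0 of the 9 tested receptor and adaptor genes were called by edgeR, against 0.00740% of all tested genes. In the same test 0 of the 9 had an unadjusted p under 0.05, against 3.54% of all tested genes. DESeq2's Wald test also called 0 of the 9, and its count over all genes is not given here. Groups overlapped control for all 9, while 4.41% of all tested genes lay above and 4.13% below control without overlap. The largest log2 differences were those of CLEC4E, given above, and of TLR4, with 3.40, 2.50 and 3.72 CPM after S100A8, against 2.33, 2.51 and 3.34 CPM in control (0.23, 95% interval -0.21 to 0.67). The median over the 9 was 0.04, against 0.00044 over all genes. TRAF6 had 22.19, 19.13 and 17.47 CPM after S100A8, against 18.96, 18.37 and 18.35 CPM in control (0.08, -0.11 to 0.26), with the treated libraries on both sides. In fold terms, intervals of the 8 other than CLEC4E lay between 0.673 and 1.59.

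After S100A8/S100A9, 0 of 13512 genes were called by edgeR, and so 0 of the 9, a background of 0%. In the same test 5.60% of genes and 0 of the 9 had an unadjusted p under 0.05. DESeq2 called 0 of the 9 and 1 gene in all. BSG was the 1 gene of the 9 whose groups did not overlap, where 5.31% of all tested genes lay above and 5.40% below control. It had 472.42, 438.71 and 438.60 CPM after S100A8/S100A9, against 433.15, 425.85 and 433.33 CPM in control (log2 fold change 0.06, SE 0.04, 95% interval -0.01 to 0.14, adjusted p = 0.897 in edgeR). The first of these treated libraries stood apart from the other two. AGER had 3.15, 2.93 and 1.94 CPM after S100A8/S100A9, against 2.86, 2.19 and 2.32 CPM in control (0.12, -0.37 to 0.61). MYD88 had 16.25, 14.00 and 13.93 CPM after S100A8/S100A9, against 14.12, 12.66 and 15.52 CPM in control (0.06, -0.15 to 0.27). Both overlapped. The median log2 fold change of the 9 was 0.06, against -0.00049 over all genes, and intervals of the 8 other than CLEC4E lay between 0.772 and 1.53 in fold terms. Because the 3 comparisons with PBS share the same control libraries, their values are not independent of each other.

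**Figure D4:**
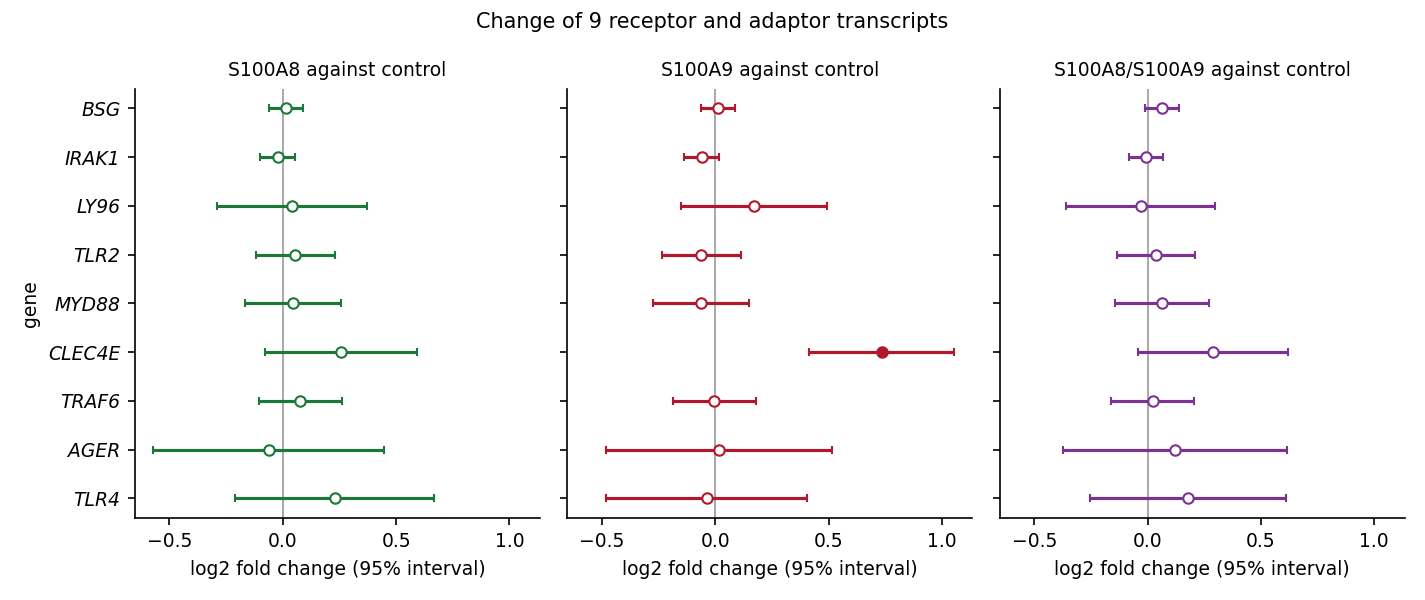
Log2 fold change against control (x axis, point) with its 95% interval (bar) for the 9 tested genes (y axis) after S100A8, S100A9 and S100A8/S100A9 in 3 panels; the filled point is past an adjusted p of 0.05. CLEC4E after S100A9, at 0.73, is the 1 filled point, and the intervals of the other genes include 0.

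Between the arms, 0 of the 9 were called by edgeR in any of the 3 comparisons. All genes tested were called in 0.252% of cases for S100A8/S100A9 against S100A9, in 0.185% for S100A9 against S100A8 and in 0% for S100A8/S100A9 against S100A8. CLEC4E was the 1 of the 9 whose groups did not overlap in the first of these, where 5.94% of all tested genes were higher and 6.53% lower without overlap. It was also the 1 in the second, where 6.41% were higher and 6.10% lower. In the third, 0 of the 9 were without overlap, against 4.45% of all genes higher and 4.55% lower. TLR4 gave a log2 difference of 0.22 (95% interval -0.21 to 0.65) for S100A8/S100A9 against S100A9 and of -0.27 (-0.70 to 0.17) for S100A9 against S100A8. LY96 gave -0.20 (-0.52 to 0.12) and 0.13 (-0.19 to 0.45) in the same comparisons. TLR4, AGER and LY96 had 31 to 103 counts per library.

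The biological coefficient of variation estimated by edgeR was 3.53% for BSG, 3.56% for IRAK1, 5.24% for TLR2, 5.66% for TRAF6 and 6.49% for MYD88. It was 8.99% for LY96, 9.77% for CLEC4E, 12.2% for TLR4 and 14.6% for AGER. The common value over all genes was 4.65%.

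Across the wider pathway, 82 other genes in 8 lists were examined and 67 passed the filter on low counts. In edgeR's test 0 of the 67 were called in any of the 6 comparisons, against 0% to 0.252% of all tested genes, shares too low to set the list apart. After S100A9, 10 of the 67 had an unadjusted p under 0.05, against 5.85% of all genes, and the median log2 fold change was 0.02, against -5.9e-05 over all genes. After S100A8 1 of the 67 and after S100A8/S100A9 4 of the 67 had such a p, against 3.54% and 5.60% of all genes.

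The 2 smallest p after S100A9 belonged to SDC4 and TNIP1. SDC4, a heparan sulfate proteoglycan of the cell surface, had 226, 273 and 244 CPM after S100A9, against 201, 214 and 198 CPM in control (log2 fold change 0.28 ± 0.07 SE, edgeR adjusted p = 0.307). All 3 treated libraries lay above control, and DESeq2's Wald test called it at an adjusted p of 0.0091. It had 198, 220 and 198 CPM after S100A8/S100A9 (-0.27 against S100A9, SE 0.07, adjusted p = 0.323 in edgeR, 0.0140 in DESeq2). How many of all genes DESeq2 called in these comparisons is not given here, so its calls of SDC4 lack a background. TNIP1, which encodes an inhibitor of NF-kB signalling, had 55.4, 63.0 and 60.9 CPM after S100A9, against 54.7, 51.1 and 51.1 CPM in control (0.19 ± 0.06 SE, edgeR adjusted p = 0.397). Against S100A8, S100A9 gave 0.23 for TNIP1 (SE 0.06, adjusted p = 0.169) and 0.22 for SDC4 (SE 0.07, adjusted p = 0.481).

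In the other arms the smallest p belonged to other genes, and none of them was called. After S100A8, PELI2, a ubiquitin ligase of the IRAK complex, averaged 1.94 ± 0.48 CPM, against 1.10 ± 0.16 CPM in control (0.81, SE 0.30, adjusted p = 1.00 in edgeR). Its deposited FPKM did not show this difference, with 0.38 ± 0.08 after S100A8 and 0.38 ± 0.19 in control. After S100A8/S100A9, SLC16A3, a lactate transporter that CD147 carries, averaged 63.0 ± 1.62 CPM, against 69.8 ± 4.58 CPM in control (-0.14, SE 0.06, adjusted p = 0.832). PPIA, which encodes cyclophilin A, a ligand of CD147, averaged 738 ± 30.6 CPM after S100A8/S100A9, against 684 ± 19.2 CPM in control (0.11, SE 0.04, adjusted p = 0.838), and 722 ± 33.6 CPM after S100A8 (0.08, SE 0.04, adjusted p = 1.00). For S100A8/S100A9 against S100A8, TAB2, an adaptor downstream of TRAF6, averaged 195 ± 7.39 CPM after S100A8/S100A9, against 183 ± 4.66 CPM after S100A8 (0.09, SE 0.04, adjusted p = 0.981).

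**Figure D5:**
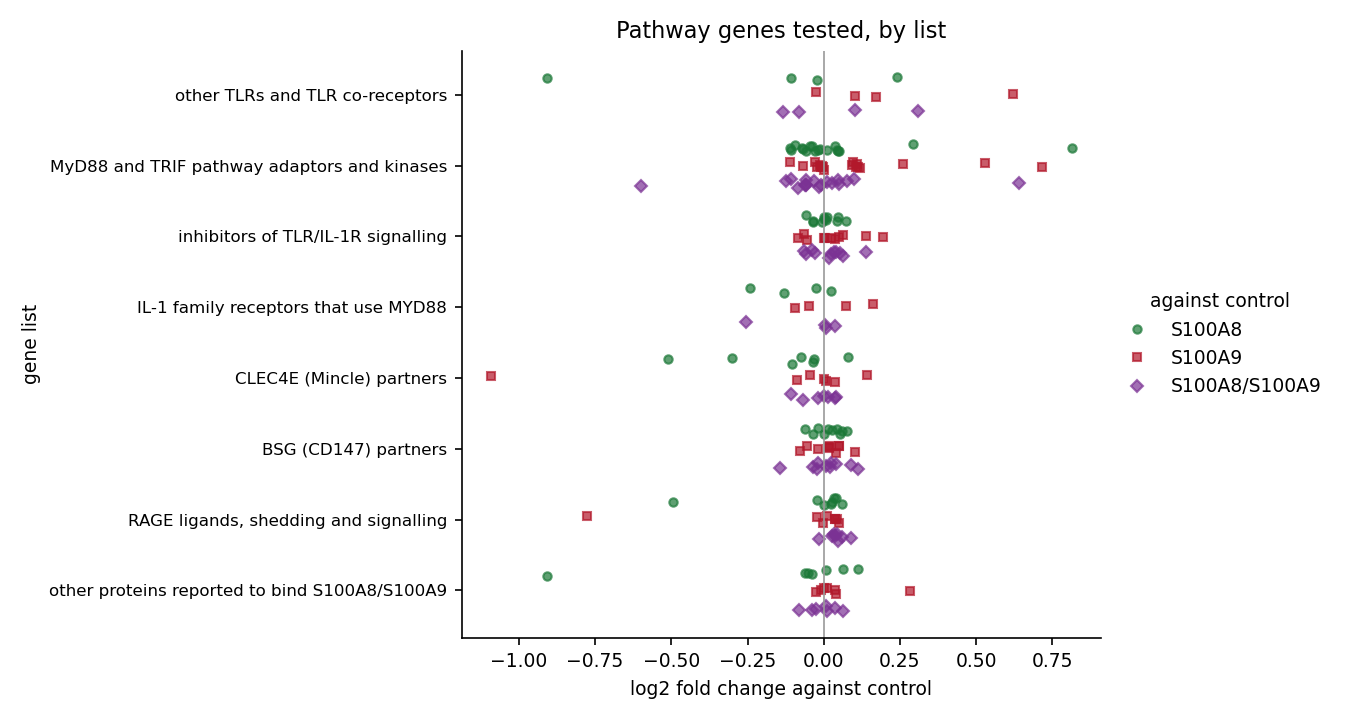
Log2 fold change against control (x axis) of each tested gene in the 8 pathway lists (y axis) after S100A8, S100A9 and S100A8/S100A9, 1 point per gene and arm. Most points lie close to 0, those far from it are low genes such as PELI2, and none was called in edgeR's test.

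The levels of these lists show which machinery HK-2 cells transcribe. Among the other toll-like receptors and co-receptors TLR3, a receptor for double-stranded RNA, was highest at 4.54 ± 0.04 FPKM and TLR6, which pairs with TLR2, followed at 2.04 ± 0.24 FPKM in control; LY86 and CD180 had 0 counts in all 12 libraries. With 0 counts in a single library, a level of 0.189 CPM (3 counts in the smallest library) is still possible, by counting error alone. For 0 counts in all 12 libraries the limit is lower. Of the adaptors and kinases the ubiquitin-conjugating pair that works with TRAF6 was highest, with UBE2N at 98.7 ± 6.48 FPKM and UBE2V1 at 80.9 ± 5.90 FPKM, and SARM1 was lowest at 0.28 ± 0.08 FPKM. The inhibitors were led by the deubiquitinase CYLD at 35.1 ± 2.39 FPKM and TNIP1 at 23.9 ± 1.20 FPKM, with IRAK1BP1 lowest at 2.03 ± 0.36 FPKM. All 11 inhibitors were therefore above the level of TLR4.

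Levels within the other lists ranged widely. Of the BSG partners, PPIA stood at 989.7 ± 41.0 FPKM and the integrin subunit ITGB1 at 283 ± 8.61 FPKM in control, with EMB lowest at 7.0 ± 0.75 FPKM. In the RAGE list RAC1, a small GTPase downstream of the receptor, stood at 237 ± 2.07 FPKM and HMGB1, another RAGE ligand, at 223 ± 1.43 FPKM, while the ligand S100B was listed at 0 in the control libraries. Among the other surface proteins reported to bind S100A8 or S100A9, ALCAM stood at 165 ± 2.14 FPKM and SDC4 at 78.3 ± 3.38 FPKM, and CD69 was lowest at 0.037 ± 0.064 FPKM. Of the receptors for IL-1 family cytokines, IL1RAP, a subunit shared by several of them, was highest at 10.4 ± 0.26 FPKM. IL1RL2 followed at 2.29 ± 0.56 FPKM, and IL1RL1 was listed at 0 in control.

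Transcripts whose profiles were most like those of the receptors were listed by Pearson r of log2 CPM over the 12 libraries, which share groups and depth. For CLEC4E they included LENG1 (r = 0.87) and the cytokine gene IL6 (r = 0.86), where 90% of genes had an r below 0.42. That 90% mark is no reference for the highest r picked from all genes searched. How high the best r would be among unrelated genes over 12 libraries was not tested. The listed transcripts, for CLEC4E and for the other genes below, are therefore a ranking and not shown to be co-expressed partners. IL6 was itself called after S100A9 (log2 fold change 1.30, adjusted p = 1.8e-06 in edgeR), whereas LENG1 (0.50, adjusted p = 0.530) was not. For TLR4 they were ANO7 (0.89), GRTP1 (0.86) and E2F4 (0.85), for TLR2 LCA5L (0.94), FER (0.92) and NEPRO (0.88), for LY96 GLT8D1 (0.83), UBE2B (0.83) and RBM7 (0.82), and for AGER DENND2B (0.86), DUS2 (0.86) and GID8 (0.85). For MYD88 they were TUBGCP4 (0.83), GOLT1A (0.83) and ZNF384 (0.83), for BSG ACTG1 (0.92), CYB5R3 (0.91) and HNRNPUL1 (0.91), for IRAK1 PDGFRB (0.90), FAM53C (0.90) and BTBD9 (0.86), and for TRAF6 PLPP3 (0.88), GAB2 (0.87) and UVSSA (0.82). Among the 9 genes themselves the highest r was that of TLR4 with MYD88 (0.70) and the lowest that of LY96 with IRAK1 (-0.69). CLEC4E lay between -0.55 with TLR2 and 0.09 with LY96, so its profile was not shared by another of the 9.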

How the data were processed

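RNA selected with oligo(dT) was sequenced in 12 libraries. Per the file headers, the authors deposited an expected count and an FPKM value for each gene. Of the count entries, 12.0% are not whole, and the deposited FPKM is the authors' scaling by length and library total. How that length was set is not given. It was not the same in each library for every gene, as the implied length of CLEC4E ran from 971 to 1369 bases. Aligner and counting tool: not given in the sources used here. Mouse builds (GRCm38, mm10) appear in the submitters' processing notes although the gene IDs are human, so which build lies behind the counts is unknown.

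Counts were rounded, filtered (filterByExpr, minimum count 10, 13512 genes left), scaled by TMM and fitted by edgeR 4.0.16 (R 4.3.3) with its robust quasi-likelihood method. Groups were the only terms, all 12 libraries entered, and 8 residual degrees of freedom remained. P-values are two-sided and adjusted by Benjamini-Hochberg over every gene tested, with a threshold of 0.05; SE and 95% intervals derive from the same statistic. CPM are TMM-normalised. Replicate columns were checked and none were identical. The fit was also run on simulated counts, drawn from its own estimates of spread and without any batch. That run cannot show a batch or technical replicates, and its outcome is not given here. Implied length is the count divided by FPKM and library total, if FPKM used that total.

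The members and lists were chosen with earlier results of these data known. Named genes were all 10 members, the 2 highest and the lowest gene of each list by control FPKM, the 2 with the smallest p in each comparison, and the 3 most correlated genes for each member with a mean of at least 1 CPM; 1 of these, for CLEC4E, is not reported here. Other names were chosen after their values were seen.

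Alternatives: the replicate number as a block; DESeq2 size factors; unfiltered counts; the Wald test of DESeq2 1.42.0; the 6 compared libraries alone; limma 3.58.1 on log2(FPKM + 1) or log2(FPKM + 0.1); the robust option off; each library left out. Totals of 15882193 to 20748334 counts set the precision, and a 0 in a single library could hide up to 3 counts.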

Additional observations from a re-analysis of the deposited data

How the results depend on the processing

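Of 756 alternative values for the log2 fold changes of the 9 tested genes (54 results), 690 kept their direction and their side of the threshold. The call of CLEC4E after S100A9 was lost in 9 of 14 alternatives. Its log2 fold change was 0.73 without the robust option (adjusted p = 0.108 in edgeR), 0.73 on only the 6 libraries compared (0.0761), 0.50 with limma on log2(FPKM + 1) (0.559) and 0.59 with limma on log2(FPKM + 0.1) (0.587), and lay between 0.62 and 0.84 with a library left out. It was past the threshold without S100A9 replicate 2 (0.0246), unfiltered (0.0120), by DESeq2's Wald test (0.0285), under the replicate block (0.0177) and when scaled by DESeq2 size factors (0.0473). The other 57 values changed sign, in 27 results that were not called and were at most 0.12 in size.

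On log2(FPKM + 1) and log2(FPKM + 0.1), limma gave sign changes for AGER in S100A8 against control (0.073, 0.10), TRAF6 in S100A9 against control (0.079, 0.098), AGER in S100A9 against S100A8 (-0.0029, -0.0037), and, in S100A8/S100A9 against S100A8, for TLR4 (0.0095, 0.034), MYD88 (-0.013, -0.014) and TRAF6 (0.020, 0.023); TLR4 in S100A9 against control changed sign only with the smaller pseudocount (0.0022).

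With a library left out, the ranges that crossed 0 were, for S100A8 against control, AGER -0.15 to 0.070, LY96 -0.0095 to 0.069, MYD88 -0.026 to 0.12 and TRAF6 -0.021 to 0.15. Those for S100A9 against control were TLR4 -0.14 to 0.14, TLR2 -0.17 to 0.00057, AGER -0.21 to 0.18, MYD88 -0.13 to 0.014, BSG -0.0031 to 0.027 and TRAF6 -0.059 to 0.043. Those for S100A8/S100A9 against control were AGER -0.027 to 0.31, LY96 -0.15 to 0.063, MYD88 -0.017 to 0.14, IRAK1 -0.042 to 0.022 and TRAF6 -0.022 to 0.044. Those for S100A8/S100A9 against S100A9 were AGER -0.055 to 0.34 and TRAF6 -0.019 to 0.083. Those for S100A9 against S100A8 were AGER -0.15 to 0.24, BSG -0.019 to 0.012 and TRAF6 -0.16 to 0.017. Those for S100A8/S100A9 against S100A8 were TLR4 -0.20 to 0.071, TLR2 -0.034 to 0.0069, LY96 -0.19 to 0.022, MYD88 -0.060 to 0.087, CLEC4E -0.067 to 0.17, IRAK1 -0.021 to 0.044 and TRAF6 -0.13 to 0.044.

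The count of all genes called in S100A8 against control, 1, was 2 with the replicate block and 0 without the robust option, with both limma fits and on the 6 libraries, and 0 to 2 with a library left out. In S100A9 against control, 20 genes became 42 with the replicate block, 12 and 11 with limma, and 11 to 22 with a library left out. In S100A8/S100A9 against control, 0 became 2 with the block, 1 with DESeq2, 2 on the 6 libraries and 0 to 2 with a library left out. In S100A8/S100A9 against S100A9, 34 became 71 with the block, 13 and 12 with limma and 14 to 31 with a library left out. In S100A9 against S100A8, 25 became 69 with the block, 10 and 10 with limma and 14 to 24 with a library left out, and in S100A8/S100A9 against S100A8, 0 became 2 with DESeq2.

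Of the 9 genes, the 1 called after S100A9 became 0 without the robust option, with both limma fits and on the 6 libraries, and 0 to 1 with a library left out. Of the 67 pathway genes, 0 became 1 (SDC4) with the block, with DESeq2 and without S100A9 replicate 1 (0 to 1 with a library left out) in S100A9 against control and in S100A8/S100A9 against S100A9, and 2 (SDC4 and TNIP1) with the block in S100A9 against S100A8. The replicate numbers share only a number as far as the labels say: 2 of 18 same-numbered pairs correlated over 0.1 (range -0.07 to 0.15), and 9 of 12 libraries correlated best with their own number, a hint from the data and not the design. The causes of these shifts were not tested. Of the 10 genes, CD14, TLR4, AGER and LY96 had the lowest mean counts, at most 103 in a library, and so the largest relative counting error. CLEC4E, the gene called after S100A9, came next with 72 to 161 counts in a library.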
